A study of Rattus norvegicus with 8 samples.

Results

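Matricellular proteins are secreted into the extracellular matrix, where they act on cell behaviour more than they build structure. A group of 10 such genes and close matrix regulators was followed here: Thbs1 (thrombospondin 1), Lox (lysyl oxidase), Ccn1 and Ccn2 (the CCN proteins once called Cyr61 and Ctgf), Fn1 (fibronectin), Spp1 (osteopontin), Sparc, Tnc (tenascin C) and the metalloproteinase inhibitors Timp1 and Timp3. Features were assigned to these genes by symbol in the platform annotation. Of the 10 genes, 9 were annotated, on 15 of the 20500 features of the array. Timp1 was not measured under its symbol. Thbs1 and Tnc lay on 4 features each and the other 7 genes on 1 each.

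The measurements came from 8 two-channel arrays of rat intestinal epithelial cells. RIE is the parental line, and RIE-Ras cells were derived from it by stably introducing an expression vector, pSV2-H-Ras(12V), that encodes a constitutively active human H-Ras. The labels do not say whether RIE-Ras cells are 1 clone or a pool. In each line, 4 arrays set RNA of cells given TGF-beta-1 at 2 ng/ml for 1 hr against RNA of control cells of the same line, so that every value is the log2 of treated RNA relative to control RNA and each line serves as its own control. No array compared the lines directly, so the basal level of a member in RIE-Ras against RIE cells was not measured. From each ratio the array's own median was subtracted, which stood between 0.20 and 0.45 before centring. The labels number the 4 samples of a line without saying whether they came from separate cultures, and p-values reflect only how these samples scatter, possibly for technical reasons. The number of arrays limits the precision. Across features, RIE replicates 3 and 4 were the most alike (r = 0.69), while all other pairs of arrays lay between -0.11 and 0.40, and RIE-Ras replicate 1 correlated below 0 with 6 of the other 7 arrays. Since only ratios were used, the level of epithelial markers could not be checked. The ratios of the 7 measured epithelial markers, of 10 listed, had a median of 0.03 in RIE cells and of 0.13 in RIE-Ras cells, with array medians from -0.09 to 0.12 and from -0.04 to 0.47. Ratios of fibroblast or smooth muscle markers, 6 of 8 measured, had array medians from -0.14 to 0.15 in RIE and from -0.43 to -0.04 in RIE-Ras cells. For endothelial markers, 4 of 4 measured, the ranges were 0.18 to 0.35 and -1.37 to 0.41, and for blood markers, 3 of 4 measured, 0.07 to 0.23 and 0.13 to 0.42. Their part in the results below was not tested. Fewer cells expressing a gene and less RNA per cell cannot be told apart in such RNA.

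TGF-beta signals through receptor kinases that activate Smad transcription factors, and matrix genes are among its best known targets in epithelial and mesenchymal cells. Thrombospondin 1 can in turn release TGF-beta from its latent complex, and lysyl oxidase cross-links collagen and elastin. CCN proteins, osteopontin, tenascin C and fibronectin bind integrins, and Timp proteins inhibit matrix-degrading metalloproteinases.

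In RIE-Ras cells 4 of the 9 measured members, Thbs1, Lox, Ccn2 and Timp3, were above the array median on all 4 arrays, where 14.3% of all features were. In parental RIE cells this held for Thbs1 alone, 1 of 9 members, beside 14.8% of all features. By limma, with Benjamini-Hochberg adjustment over 17402 features and a threshold of 0.05, Thbs1 and Lox rose in RIE-Ras cells, which is 2 of 9 members beside a background of 0.419% of features, and no member fell. The members were chosen with earlier results of these data known, so the counts and medians given here describe them and do not test the group. No member passed in RIE cells, beside 0.0747% of features, and none in the contrast of the lines, where 0% of features passed. Both calls were lost when the arrays' spread was equalised and under quantile normalization. Without centring 5 members passed in RIE and 5 in RIE-Ras cells, where the split of all called features into higher and lower was 3963 to 98 and 3591 to 66, against 3 to 10 and 52 to 21 with centring. At an unadjusted p under 0.05 the counts of members were 2 in RIE cells, 4 in RIE-Ras cells and 2 in the contrast, beside 17.5%, 19.3% and 10.7% of features. The median over the 9 members was 0.19 in RIE cells, 0.33 in RIE-Ras cells and 0.42 for the difference, beside medians of -0.01, 0.01 and 0.04 over all features. The RIE median was 0.11 without RIE replicate 4, 0.01 with array weights and 0.54 without centring, where all features stood at 0.35. The RIE-Ras median was 0.61 without centring, where all features stood at 0.29, and the median difference was 0.23 without RIE-Ras replicate 3. Smad7, a feedback inhibitor of the pathway that is itself a TGF-beta target, served as a reference for the response. It stood at 1.80 ± 0.19 (log2 ratio ± moderated SE, n = 4, limma adjusted p = 0.0345) in RIE and 1.39 ± 0.19 (adjusted p = 0.0386) in RIE-Ras cells. Over 17 fits, the reported one among them, Smad7 passed in 8 for RIE and in 5 for RIE-Ras cells.

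**Figure D1:**
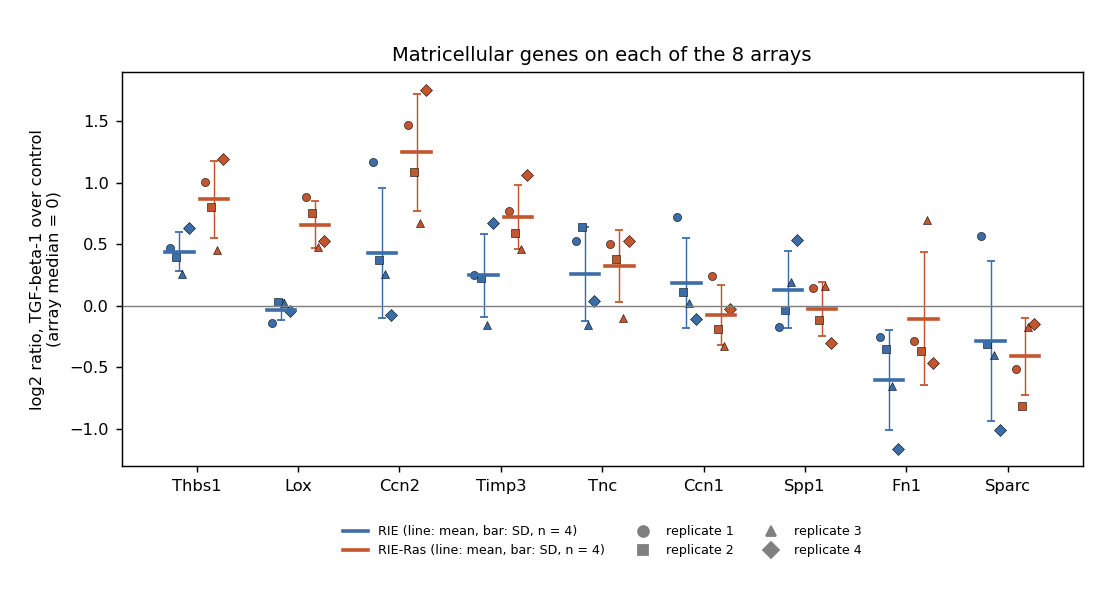
Log2 ratio of treated over control RNA (y axis, array median at 0) of each measured member on each array, with blue for RIE and orange for RIE-Ras cells, a marker shape per replicate, a line for the mean and a bar for the SD (n = 4). Thbs1, Lox, Ccn2 and Timp3 lie above 0 on all 4 RIE-Ras arrays, and Lox is the member whose lines do not overlap.

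Thbs1 encodes a large secreted glycoprotein that binds CD36, CD47 and integrins. Averaged over its 4 features, its ratios were 0.47, 0.40, 0.26 and 0.64 on RIE replicates 1 to 4, and 1.00, 0.80, 0.46 and 1.20 on RIE-Ras replicates 1 to 4. All 8 arrays were above 0, and the lines overlapped, since RIE-Ras replicate 3 lay below RIE replicates 1 and 4. The mean was 0.87 ± 0.13 (log2 ± moderated SE, n = 4, limma adjusted p = 0.0454) in RIE-Ras cells, a 1.82-fold ratio that exceeded 98.3% of all features. In RIE cells it was 0.44 ± 0.13 (adjusted p = 0.168), a 1.36-fold ratio above 93.0% of features. Thbs1 passed in RIE cells without centring (0.80, limma adjusted p = 0.0177) and with array weights (0.31, adjusted p = 0.01355). In RIE cells these settings called 4061 and 6539 of all 17402 features. The difference between the lines was 0.43 (95% interval -0.004 to 0.85, adjusted p = 0.472). The call in RIE-Ras cells lay close to the threshold: of the 8 fits that left out 1 array it was kept only without RIE replicate 1, and the adjusted p ranged from 0.0475 to 0.117.

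The 4 features of Thbs1 did not move alike. Feature 14458 read 1.48, 1.78, 1.26 and 1.81 on RIE-Ras replicates 1 to 4 against 0.83, 0.66, 0.39 and 0.91 on RIE replicates 1 to 4. Its lines did not overlap. Of all features, averaged by symbol, 5.0% had lines without overlap and RIE-Ras higher. Fitted on its own among all 20500 features, feature 14458 rose by 1.58 ± 0.13 in RIE-Ras cells (limma adjusted p = 0.00622). It stood at 0.70 ± 0.13 in RIE cells (adjusted p = 0.0990), with a difference of 0.88 ± 0.19 (adjusted p = 0.233). Feature 10449 was at 0.92 ± 0.17 in RIE-Ras and 0.49 ± 0.17 in RIE cells, and feature 3343 at 0.80 ± 0.15 and 0.73 ± 0.15, so that the lines were within 0.07 of each other on feature 3343. Neither passed in RIE-Ras cells (limma adjusted p = 0.0504 for feature 10449 and 0.0514 for feature 3343). Feature 19449 was at 0.17 ± 0.19 (limma adjusted p = 0.668) in RIE-Ras and -0.16 ± 0.19 in RIE cells, with ratios from -0.35 to 0.65 in RIE-Ras and from -0.64 to 0.07 in RIE cells. Fitted singly, only feature 14458 of the 4 passed in RIE-Ras cells, where 103 of all 20500 features passed. The annotation gives features 10449, 14458 and 19449 the same transcript. The gene mean of Thbs1 therefore averages 3 features that were positive on all 8 arrays with 1 that was not. Probe sequences were not used here, so which part of the transcript each feature reads was not tested.

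**Figure D2:**
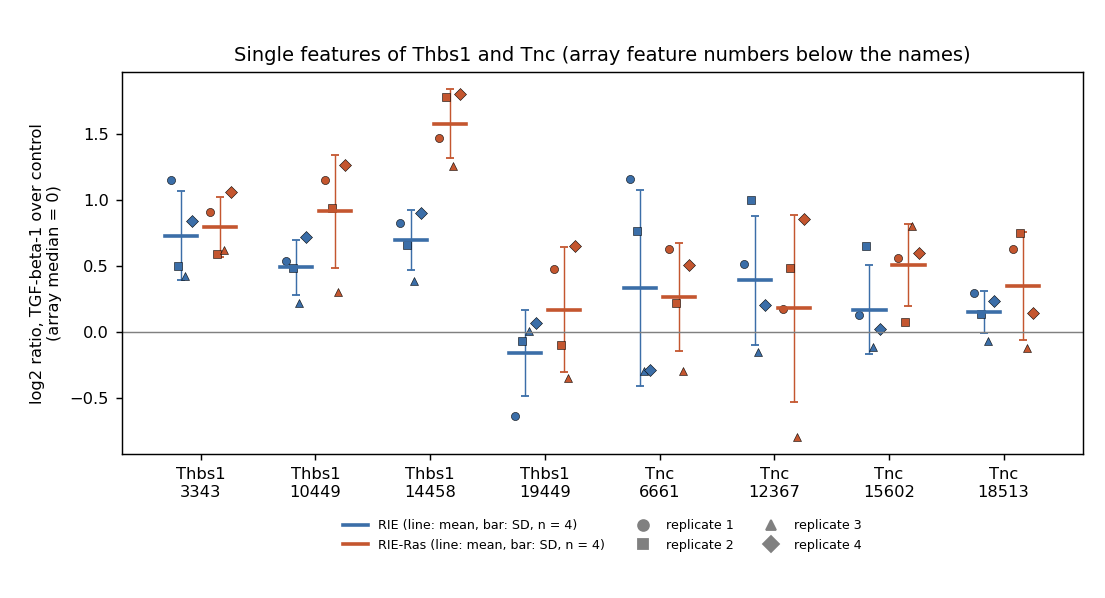
Log2 ratio (y axis, array median at 0) of each of the 4 Thbs1 and 4 Tnc features on each array, with the array's feature number under the gene name, colours and shapes by line and replicate, a line for the mean and a bar for the SD (n = 4). Thbs1 feature 14458 separates the lines, whereas feature 19449 scatters around 0. Averaged by symbol, 5.0% of all features had lines without overlap and RIE-Ras higher.

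Lox encodes the copper-dependent enzyme that oxidises lysines of collagen and elastin before they cross-link. Its single feature read -0.14, 0.03, 0.02 and -0.04 on RIE replicates 1 to 4, and 0.89, 0.75, 0.48 and 0.53 on RIE-Ras replicates 1 to 4. Every RIE-Ras array lay above every RIE array, and Lox was the 1 member of 9 whose lines did not overlap, beside 5.0% of all features with RIE-Ras higher. Lox rose by 0.66 ± 0.10 in RIE-Ras cells (n = 4, limma adjusted p = 0.0474), a 1.58-fold ratio, and stood at -0.03 ± 0.10 in RIE cells (adjusted p = 0.903), with a 95% interval of -0.27 to 0.20. The difference of 0.69 ± 0.15 (95% interval 0.36 to 1.03) did not pass over all features (adjusted p = 0.228). Without centring the RIE mean was 0.32, because the median feature then stood at 0.35 in RIE cells and 0.29 in RIE-Ras cells, and the difference was 0.62 by that scaling. The rise, like that of Thbs1, was kept without RIE replicate 1 and not without any other single array (adjusted p from 0.0456 to 0.119).

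Ccn2, a modular protein that binds growth factors and integrins, had the highest ratio of the members in RIE-Ras cells. Its values were 1.17, 0.37, 0.26 and -0.08 on RIE replicates 1 to 4 and 1.47, 1.09, 0.67 and 1.76 on RIE-Ras replicates 1 to 4. The lines overlapped through RIE replicate 1, which stood above RIE-Ras replicates 2 and 3. The RIE-Ras mean of 1.25 ± 0.22 (n = 4), a 2.37-fold ratio above 99.45% of features, missed the threshold (limma adjusted p = 0.0541), and without RIE replicate 1, which enters the shared spread, the same mean had an adjusted p of 0.0456. In RIE cells the mean was 0.43 ± 0.22 (adjusted p = 0.358) and 0.18 without RIE replicate 1. Without centring Ccn2 passed in both lines, at 0.79 in RIE (limma adjusted p = 0.0289) and 1.53 in RIE-Ras cells (adjusted p = 0.00706). Of all 17402 features, 4061 in RIE and 3657 in RIE-Ras cells passed without centring. The difference between lines was 0.82 (95% interval 0.09 to 1.54, adjusted p = 0.420), and 1.06 without RIE replicate 1 (lowest adjusted p over the arrays left out 0.279).

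Its family member Ccn1, an immediate early gene in many cell types, had ratios of 0.72, 0.12, 0.02 and -0.11 on RIE replicates 1 to 4 and 0.24, -0.18, -0.32 and -0.03 on RIE-Ras replicates 1 to 4. RIE replicate 1 was the highest of all 8 arrays, and without it the RIE mean was 0.01. The means were 0.19 ± 0.15 in RIE (limma adjusted p = 0.559) and -0.07 ± 0.15 in RIE-Ras cells (adjusted p = 0.834), where the 95% interval ran from -0.42 to 0.28, and the RIE-Ras mean was 0.21 without centring. The RIE mean was then 0.54 and passed (limma adjusted p = 0.0273), as 4061 of all 17402 features did. The Ccn2 ratio exceeded the Ccn1 ratio of the same array on 8 of 8 arrays, by 0.03 to 0.45 in RIE and by 0.99 to 1.78 in RIE-Ras cells. This difference between the genes was noticed in the values and was not tested.

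The stretches of 250 bases before the annotated starts of Ccn2, Ccn1 and Thbs1 are shown because Ccn2 and Ccn1 are the family pair whose ratios parted and Thbs1 is 1 of the 2 members whose rise passed. They are taken from RefSeq, build GRCr8, on the gene's strand from 5′ to 3′. Ccn2 is read from chr1:22624615-22624864 on the minus strand, Ccn1 from chr2:237225690-237225939 on the minus strand and Thbs1 from chr3:125510000-125510249 on the plus strand. Capitals mark CAGAC, a Smad box, and GGAATG, the core of the site bound by TEAD factors, on either strand (GTCTG and CATTCC on the other).
Ccn2: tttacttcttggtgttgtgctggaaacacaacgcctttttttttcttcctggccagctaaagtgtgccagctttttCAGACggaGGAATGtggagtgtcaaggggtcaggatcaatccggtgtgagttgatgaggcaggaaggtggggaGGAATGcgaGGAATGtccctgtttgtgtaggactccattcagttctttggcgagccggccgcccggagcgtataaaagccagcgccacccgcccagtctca
Ccn1: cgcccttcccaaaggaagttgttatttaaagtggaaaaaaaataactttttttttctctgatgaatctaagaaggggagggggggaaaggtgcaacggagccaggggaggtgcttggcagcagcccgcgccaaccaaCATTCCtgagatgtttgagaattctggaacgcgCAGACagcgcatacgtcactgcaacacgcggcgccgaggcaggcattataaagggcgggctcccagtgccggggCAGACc
Thbs1: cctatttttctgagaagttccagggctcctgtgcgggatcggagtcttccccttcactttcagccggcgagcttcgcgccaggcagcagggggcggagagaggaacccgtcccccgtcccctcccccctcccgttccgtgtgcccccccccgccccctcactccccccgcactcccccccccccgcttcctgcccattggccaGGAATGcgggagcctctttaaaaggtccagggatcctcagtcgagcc

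Ccn2 held the TEAD letters 3 times, starting 166, 101 and 92 bases before the start, and the Smad box 1 time, 174 bases before it. At least 1 match to GGAATG was found in 12.1% of 33469 promoter windows of the same length, and 3 or more in 0.0807%. Ccn1 held 1 such match, 113 bases before its start, and 2 Smad boxes, at 80 and 6 bases, and Thbs1 had 1 match to GGAATG, at 47 bases. The Smad box letters were in 42.9% of all windows. RefSeq windows were matched for 7 of the 9 measured members, all but Lox and Fn1. Sparc held 3 Smad boxes and 1 GGAATG, Tnc and Spp1 1 Smad box each, and Timp3 none of these letters. Among all windows, 2.54% held 3 or more Smad boxes. GTCTAGAC, the Smad palindrome (0.173% of all windows), TGANTCA, an AP-1 site (6.34%), and the CArG box bound by SRF (1.5%) were not in the 7 windows. TATAAA (12.9% of all windows) lay 31 bases before the start of Ccn2 and 34 before that of Ccn1, and 208 and 204 bases before those of Tnc and Spp1. Such matches describe the letters and do not show that a factor bound there. No motif overlapped another among those marked.

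**Figure D3:**
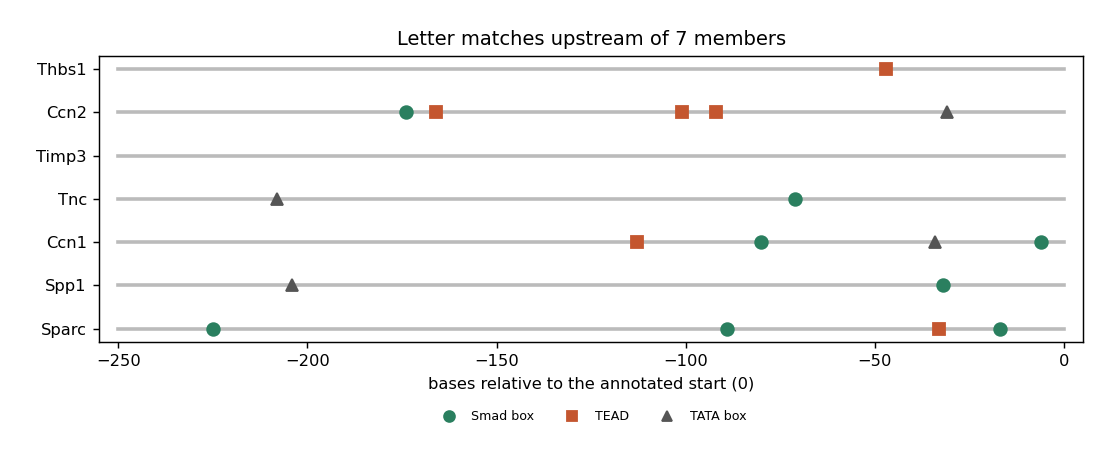
Positions of letter matches (first base, x axis in bases relative to the annotated start) for the Smad box CAGAC, the TEAD core GGAATG and TATAAA on either strand in the 250 bases before 7 members. Ccn2 is the window with 3 TEAD matches, and Timp3 has no match to the 3 motifs drawn.

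Timp3, a matrix-bound inhibitor of metalloproteinases and of the sheddase Adam17, read 0.25, 0.23, -0.15 and 0.68 on RIE replicates 1 to 4 and 0.77, 0.60, 0.46 and 1.07 on RIE-Ras replicates 1 to 4. All RIE-Ras arrays were positive, and RIE replicate 4 reached into their range. The RIE-Ras mean of 0.72 ± 0.15 (n = 4), a 1.65-fold ratio above 97.2% of features, did not pass (limma adjusted p = 0.0698), nor did the RIE mean of 0.25 ± 0.15 (adjusted p = 0.427) or the difference of 0.47 (95% interval -0.01 to 0.96, adjusted p = 0.479). Without centring Timp3 passed in both lines, at 0.61 in RIE (limma adjusted p = 0.03035) and 1.01 in RIE-Ras cells (adjusted p = 0.0091). Of all 17402 features, 4061 in RIE and 3657 in RIE-Ras cells passed without centring.

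Across the 8 arrays the ratios of Timp3 followed those of Thbs1 (Pearson r = 0.93), more closely than those of Ccn2 (0.76) or Lox (0.70) did. These correlations are descriptions over arrays that share the difference between lines. Among named genes outside the group, those most like Thbs1 were Upf2 (0.96), Nudcd1 (0.94) and Ccna2 (0.94). Most like Lox were Gnao1 (0.99), Eif2ak4 (0.97) and Zfp952 (0.96), and most like Ccn2 were Mcm2 (0.98), Mtmr2 (0.98) and Odad4 (0.98), each over 8 arrays. Gnao1, a G protein alpha subunit, stood at -0.29 in RIE cells and 0.87 in RIE-Ras cells, and Zfp952 at -0.36 and 0.83. Neither gene's lines overlapped, beside 5.0% of all features without overlap and with RIE-Ras higher. Both were picked from 9652 named genes for likeness to Lox, whose own lines did not overlap, so their separation largely follows from that choice. Mcm2, a subunit of the replicative helicase, was likewise picked from the 9652 named genes, for likeness to Ccn2. Its mean ratios were -0.32 in RIE and 0.13 in RIE-Ras cells, where those of Ccn2 were 0.43 and 1.25.

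The adhesive proteins of the group did not pass in either line, though Tnc passed in both without centring (limma adjusted p = 0.0293 in RIE and 0.0284 in RIE-Ras cells), and Fn1 and Sparc passed as lower in RIE cells with array weights (adjusted p = 0.00397 and 0.0194). Many of the 17402 features passed in these settings: 4061 in RIE and 3657 in RIE-Ras cells without centring, and 6539 in RIE cells with array weights. Tnc, an adhesion-modulating glycoprotein, averaged over 4 features, read 0.53, 0.64, -0.16 and 0.04 on RIE replicates 1 to 4 and 0.50, 0.38, -0.10 and 0.53 on RIE-Ras replicates 1 to 4. Replicate 3 was lowest in both lines. The means were close, 0.26 ± 0.16 and 0.33 ± 0.16 (limma adjusted p = 0.442 and 0.319), with a difference of 0.07 (95% interval -0.46 to 0.59). Its features spread on single arrays: on RIE-Ras replicate 3, feature 12367 read -0.80 and feature 15602 read 0.80.

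Fn1, the main fibrillar glycoprotein that cells assemble around them, was below the median on every RIE array, with -0.26, -0.35, -0.65 and -1.16 on replicates 1 to 4. The RIE-Ras arrays read -0.29, -0.37, 0.70 and -0.46, so that replicate 3 stood apart from the other 3. The RIE mean was -0.60 ± 0.22 (limma adjusted p = 0.216), and -0.25 without centring. In RIE-Ras cells the mean was -0.10 ± 0.22 (adjusted p = 0.827), and -0.37 without replicate 3. The difference between lines was 0.50 (95% interval -0.19 to 1.19).

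Sparc, a collagen-binding glycoprotein, read 0.57, -0.31, -0.40 and -1.01 on RIE replicates 1 to 4, a spread wider than that of any other member within a line, and -0.51, -0.81, -0.17 and -0.15 on RIE-Ras replicates 1 to 4. Its means of -0.29 ± 0.23 and -0.41 ± 0.23 (limma adjusted p = 0.549 and 0.366) did not pass, and the RIE mean was -0.57 without RIE replicate 1 and -0.04 without RIE replicate 4. Spp1, a secreted phosphoprotein that binds integrins and CD44, stayed between -0.17 and 0.54 on RIE and between -0.30 and 0.16 on RIE-Ras arrays. Its means were 0.13 ± 0.14 and -0.03 ± 0.14 (adjusted p = 0.657 and 0.937), and the difference of -0.16 had a 95% interval of -0.61 to 0.29. Without centring the RIE mean of Sparc was 0.07, and the RIE-Ras means of Fn1 and Spp1 were 0.18 and 0.26.

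**Figure D4:**
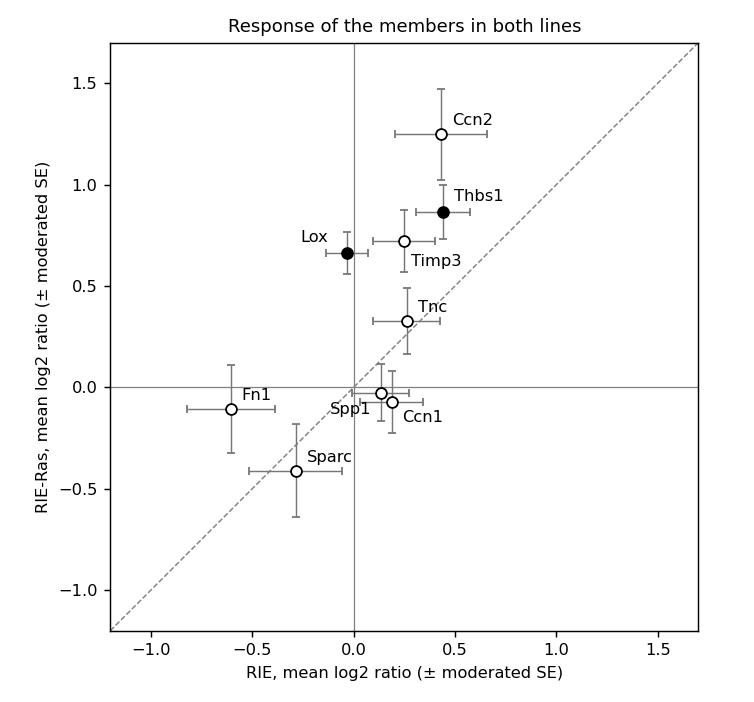
Mean log2 ratio of each member in RIE cells (x axis) against RIE-Ras cells (y axis), with bars of 1 moderated SE, the dashed line marking equal response, and filled points for the members past the threshold in RIE-Ras cells. Thbs1, Lox, Ccn2, Timp3, Fn1 and Tnc lie above the dashed line, Tnc by 0.07, and Ccn1, Spp1 and Sparc lie below it.

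Paralogs and relatives of the members were read from a list of 28 genes, of which 18 were measured. None passed in any comparison (limma, adjusted over all features), and at an unadjusted p under 0.05 the counts were 3 in RIE cells, 1 higher and 2 lower, 2 in RIE-Ras cells, 1 higher and 1 lower, and 3 in the contrast, beside 17.5%, 19.3% and 10.7% of all features. Of the relatives named here, Loxl4 in RIE cells passed as lower without centring and with array weights (adjusted p = 0.0360 and 0.000352), and array weights also called Ccn4, Tgfbi and Timp2 lower in RIE cells and the differences of Loxl4 and Ccn4 (adjusted p = 0.0334 and 0.0476). Without centring Ccn4 and Loxl4 passed as higher in RIE-Ras cells. Among all 17402 features, 4061 passed in RIE and 3657 in RIE-Ras cells without centring. Array weights called 6539 features in RIE cells and 134 in the contrast. The list's median was -0.07 in RIE and -0.01 in RIE-Ras cells. Loxl4, a lysyl oxidase paralog, read -0.66, -1.0, -1.55 and -0.78 on RIE replicates 1 to 4 and 0.10, 0.48, -0.01 and 0.76 on RIE-Ras replicates 1 to 4. Its lines did not overlap, and the RIE arrays were the ones away from 0: the means were -0.997 ± 0.18 (adjusted p = 0.0800) and 0.33 ± 0.18 (adjusted p = 0.347), with a difference of 1.33 ± 0.25 (adjusted p = 0.228). Ccn4, a CCN family member, read 0.00, -0.05, -0.58 and -0.57 on RIE and 0.90, 0.35, 0.53 and 1.03 on RIE-Ras arrays, without overlap (difference 1.00 ± 0.22, adjusted p = 0.233). Genes of the related lists were named by the smallest p in comparisons that include the contrast of lines, which favours lines without overlap. Over all features, 5.0% had lines without overlap and RIE-Ras higher. Tgfbi, a secreted protein named for its induction by TGF-beta, had negative ratios on all 8 arrays, from -1.97 to -0.16 in RIE and from -2.79 to -0.35 in RIE-Ras cells, with means of -0.78 ± 0.40 and -1.47 ± 0.40 (adjusted p = 0.349 and 0.112). Timp2 stood at -0.67 ± 0.21 in RIE cells and -0.34 ± 0.21 in RIE-Ras cells (adjusted p = 0.182 and 0.415), opposite in sign to Timp3. Without centring the RIE mean of Ccn4 was 0.06.

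Receptors of the members were read from a list of 18 genes, 14 of them measured, with no gene past the threshold in any comparison. Their medians were -0.12 in RIE and 0.03 in RIE-Ras cells. Cd47, a receptor of thrombospondin 1, was at -0.37 ± 0.14 and -0.05 ± 0.14, and Itgb1, the beta chain of most matrix-binding integrins, at -0.11 ± 0.14 and 0.33 ± 0.14. The syndecan Sdc1 was negative on all 8 arrays, with means of -0.78 ± 0.19 in RIE cells and -0.48 ± 0.19 in RIE-Ras cells (limma adjusted p = 0.133 and 0.232), and Sdc2 was at -0.13 ± 0.12 and 0.32 ± 0.12, without overlap of the lines (difference 0.44 ± 0.17, adjusted p = 0.417). Such separation, found in 5.0% of all features with RIE-Ras higher, is favoured by naming genes by their smallest p. Without centring the RIE means of Itgb1 and Sdc2 were 0.25 and 0.23, and the RIE-Ras mean of Cd47 was 0.23, and Itgb1 and Sdc2 passed as higher in RIE-Ras cells. With array weights Cd47, Itgb1 and Sdc1 passed as lower in RIE cells, where 6539 of all 17402 features passed. In RIE-Ras cells without centring 3657 features passed.

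Of 28 matrix proteases and their activators 22 were measured and none passed. The median was -0.12 in RIE and -0.05 in RIE-Ras cells. Bmp1, the procollagen proteinase that also cleaves the propeptide of lysyl oxidase, read 0.16, -0.08, -0.22 and -0.43 on RIE replicates 1 to 4 and 0.62, 0.50, 0.52 and 0.36 on RIE-Ras replicates 1 to 4. Its lines did not overlap, with means of -0.14 ± 0.12 and 0.50 ± 0.12 (limma adjusted p = 0.554 and 0.0806) and a difference of 0.64 ± 0.16 (adjusted p = 0.267). Bmp1 was named by its small p, a choice that favours separated lines, and 5.0% of all features had RIE-Ras higher without overlap. The sheddase Adam10 was at -0.09 ± 0.14 and 0.49 ± 0.14 (adjusted p = 0.775 and 0.127). Lower ratios were read for Mmp7, matrilysin, at -0.16 ± 0.16 in RIE cells and -0.69 ± 0.16 in RIE-Ras cells (adjusted p = 0.660 and 0.0852), and for Adam15 at -0.35 ± 0.11 and -0.45 ± 0.11 (adjusted p = 0.182 and 0.0944), negative on all 8 arrays. Without centring the RIE means of Bmp1, Adam10, Mmp7 and Adam15 were 0.21, 0.27, 0.20 and 0.004, and Bmp1 and Adam10 passed as higher in RIE-Ras cells. With array weights Adam15 and Bmp1 passed as lower in RIE cells, and Bmp1 passed in the contrast (adjusted p = 0.0476). Array weights called 6539 of all 17402 features in RIE cells and 134 in the contrast, and 3657 passed in RIE-Ras cells without centring.

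Ccn1 and Ccn2 are also known as targets of the YAP and TEAD and of the SRF pathways, so 20 genes of actin, SRF and YAP outputs were read beside them, 16 of them measured. None passed, with medians of -0.10 in RIE cells and 0.17 in RIE-Ras cells. Of the 16 genes, 11 had negative means in RIE and 11 had positive means in RIE-Ras cells, beside 8836 and 8833 of all 17402 features. F3, tissue factor, was positive on all 8 arrays, at 0.57 ± 0.11 in RIE cells and 0.57 ± 0.11 in RIE-Ras cells (limma adjusted p = 0.0992 and 0.0635), with a difference whose 95% interval ran from -0.36 to 0.36. In RIE cells F3 passed without centring and when the spread of the arrays or their distribution was equalised (adjusted p = 0.0177, 0.0495 and 0.0437), and with array weights. Nuak2 was at 0.04 ± 0.15 and 0.58 ± 0.15, Lats2 at 0.15 ± 0.14 and 0.48 ± 0.14, and Tagln, transgelin, at -0.31 ± 0.18 and 0.35 ± 0.18, none past the threshold (lowest adjusted p = 0.102). Without centring the RIE mean of Tagln was 0.04, Lats2 passed in both lines, and F3, Nuak2 and Tagln passed in RIE-Ras cells. With array weights Tagln passed as lower in RIE cells, where 6539 of all 17402 features passed. Leaving out the centring called 4061 features in RIE and 3657 in RIE-Ras cells. RIE replicate 1 was the highest RIE array for Lats2 (0.53) and Tagln (0.43), as it was for Ccn1, Ccn2, Fn1 and Sparc. It was the lowest RIE array for Nuak2 (-0.33), Lox and Spp1. RIE replicate 4 was the highest for F3 (0.89), Nuak2, Thbs1, Timp3 and Spp1.

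**Figure D5:**
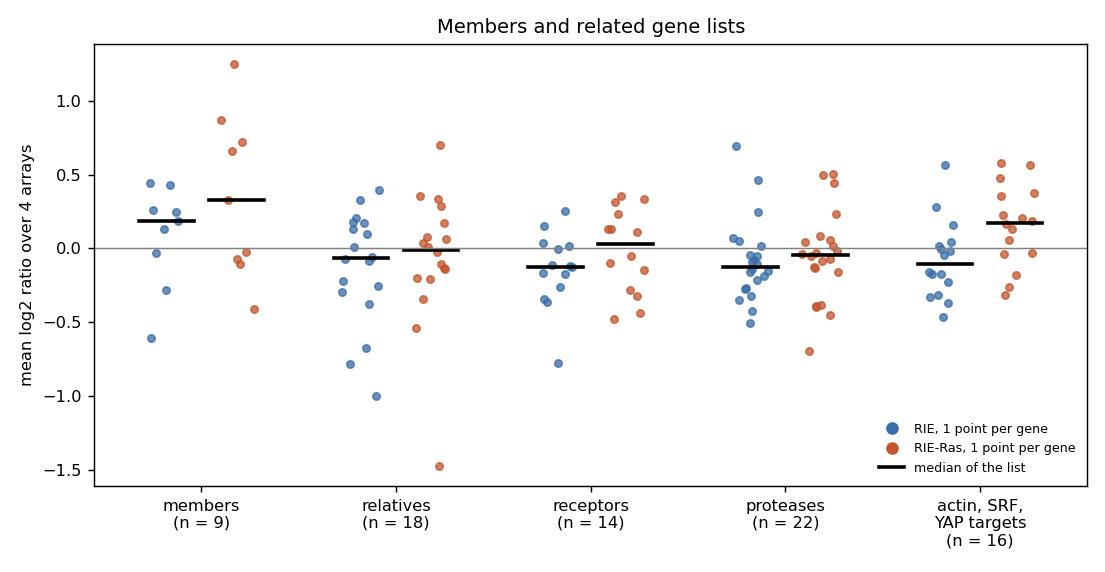
Mean log2 ratio over 4 arrays (y axis) of each measured gene in the members and the 4 related lists, blue for RIE and orange for RIE-Ras cells, with a black line at the list's median. The members' medians of 0.19 and 0.33 lie above those of the relatives, receptors and proteases, which run from -0.12 to 0.03, and above those of the actin, SRF and YAP targets, at -0.10 and 0.17. Because members and lists were chosen with earlier results of these data known, the medians are descriptions.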

How the data were processed

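Per the labels, the authors deposited for each of 8 two-channel arrays a fold change of TGF-beta-1 treated over control signal. The deposited values are log2 ratios, as found from the values: 100% give a fold change that is a whole multiple of 0.01 (tolerance 0.01 of a step). How dyes were used or swapped, and how background and normalization were handled, was not given in the sources used here. Without intensities a dye effect cannot be told apart from treatment within a line. No value was missing.

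Features were named by the platform annotation, with symbols updated through RefSeq (GRCr8); 12750 of 20500 had 1 symbol, 5 several and 7745 none. Arrays were centred on their medians, features of a symbol averaged (17402 features), and fitted in R 4.3.3 with limma 3.58.1 (lmFit, eBayes; 6 residual and 2.71 prior degrees of freedom), 1 mean per line, two-sided, Benjamini-Hochberg over all features, threshold 0.05. The fit was tested on simulated data. Moderated SEs share 1 spread per feature between lines. Members and lists were chosen with earlier results of these data known. Of each related list, genes past the threshold and the 4 with the smallest p in any comparison were named, and for Thbs1, Lox and Ccn2 the 3 most correlated genes. Alternatives were no centring, equal spread, quantile normalization, single features, limited ratios, array weights, lines fitted alone, the replicate number as a block, RIE replicates 3 and 4 averaged, and leaving out each array. Same-numbered arrays of the 2 lines correlated in their deviations by -0.05 to 0.07. The labels do not say whether same-numbered arrays share a day or batch, and these correlations cannot exclude it. A filter on dim spots was not possible.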

Additional observations from a re-analysis of the deposited data

Results flagged for a closer look

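In 4 of 52 groups of 4 arrays, over 26 genes, 1 array stood apart from the other 3 by Dixon's test (7.69% of groups, where chance flags about 1 in 20). Fn1 in RIE-Ras cells read 0.70 on replicate 3 and between -0.46 and -0.29 on the others. F3 in RIE cells read 0.89 on replicate 4 and from 0.45 to 0.46 on the others. Smad7 was highest on replicate 1 in both lines, at 2.59 in RIE cells and 1.75 in RIE-Ras cells.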

How the results depend on the processing

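The calls of Thbs1 and Lox in RIE-Ras cells lay near the threshold. Of the 9 members, the number past it in RIE-Ras cells was 2, and 5 without centring, 1 with array weights, 0 with equal spread, quantile normalization, each line fitted alone, the replicate block or RIE replicates 3 and 4 averaged, and 0 to 3 leaving out 1 array. With the replicate block the limma adjusted p of Thbs1, Lox and Ccn2 in RIE-Ras cells was 0.154, 0.176 and 0.156. Whether same-numbered arrays were paired is not known. In RIE cells 0 members passed, but 5 without centring and 3 with array weights, where the weight of RIE replicate 3 was 8.70. The contrast of lines called 0 members in each alternative. Over all features the RIE count of 13 became 4061 without centring, 87 with equal spread, 95 with quantile normalization, 6539 with array weights, 1 with each line alone, 0 with the replicate block, 1 with RIE replicates 3 and 4 averaged and 0 to 30 leaving out 1 array. The RIE-Ras count of 73 became 3657, 10 and 0 under the first 3 of these, 0 with each line alone, 0 with the replicate block, 4 with the averaged arrays and 0 to 137 leaving out 1 array. The contrast's 0 became 1 without centring, 1 with limited ratios, 134 with array weights and 0 to 2 leaving out 1 array. The cause was not tested.

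None of the values with a turned sign passed the threshold, although Timp3 and Tnc in RIE cells passed as higher without centring, and Sparc, Ccn4, Tagln, Bmp1, Itgb1 and Adam15 in RIE cells passed as lower with array weights. Over the related genes named, 13 values passed without centring and 14 with array weights and not in the reported fit. Without centring RIE means were 0.27 for Adam10, 0.0043 for Adam15, 0.21 for Bmp1, 0.0587 for Ccn4, 0.25 for Itgb1, 0.32 for Lox, 0.20 for Mmp7, 0.23 for Sdc2, 0.0713 for Sparc and 0.0424 for Tagln, RIE-Ras means 0.21 for Ccn1, 0.23 for Cd47, 0.18 for Fn1 and 0.26 for Spp1, and differences -0.0716 for F3 and -0.0074 for Tnc. With array weights Lox was 0.0131, Timp3 -0.0422 and Tnc -0.0414 in RIE cells, and the Tgfbi difference 0.0562. The Tnc and F3 differences were -0.0318 and -0.0501 with equal spread and -0.0413 and -0.13 with quantile normalization, where Nuak2 in RIE was -0.0263. With RIE replicates 3 and 4 averaged Nuak2 in RIE was -0.0296 and the Tnc difference -0.0419. Leaving out 1 array gave RIE ranges of -0.0543 to 0.0041 for Lox, -0.0018 to 0.23 for Spp1, -0.25 to 0.0148 for Adam10, -0.25 to 0.0053 for Mmp7 and -0.0907 to 0.17 for Nuak2. It gave RIE-Ras ranges of -0.18 to 0.0106 for Ccn1, -0.37 to 0.015 for Fn1 and -0.0896 to 0.0646 for Spp1, and differences of -0.37 to 0.16 for Sparc, -0.0754 to 0.21 for Tnc and -0.0483 to 0.11 for F3.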
